A study of Mus musculus with 4 samples.

Results

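Transcripts of 6 genes of meiotic entry and meiotic prophase were followed in mouse embryonic stem cells treated with CID755673: Stra8, Rec8, Meioc, Msh5, Dmc1 and Dmrt1. They were taken by symbol from the 1593 genes of the deposited table, and they had been selected on their higher values in the same libraries. The table gives them as ENSMUSG00000029848 (Stra8), ENSMUSG00000002324 (Rec8), ENSMUSG00000051455 (Meioc), ENSMUSG00000007035 (Msh5), ENSMUSG00000022429 (Dmc1) and ENSMUSG00000024837 (Dmrt1). Their differences between the groups are therefore descriptions, with no test of their own. The cells were of the 46C line, a mouse embryonic stem cell line with a green fluorescent reporter at Sox1, and all spent 24 h with serum and the MEK inhibitor PD0325901 at 1 µM. The PC group (2 libraries) also received CID755673, a protein kinase D inhibitor (dose not given in the sources used here), and the PD group (2 libraries) received PD0325901 without it. Both groups thus carried the MEK inhibitor, and no group shows the transcripts in untreated cells. No label says whether replicate libraries are separate cultures, so their spread may be technical.

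Each gene of the table had a deposited log2 fold change of 1 or more in either direction, and a deposited p-value under 0.05. Of its genes 613 were higher and 980 lower in PC, and the median log2 difference was -1.17. Reads on the listed genes numbered 601713 and 433684 in the PC libraries and 632042 and 683777 in the PD libraries, which is not their full depth. Of 10 embryonic stem cell markers 2 were listed, Utf1 and Lin28a, each lower in PC. Utf1 had 1787 and 1894 normalized reads in PC and 6644 and 7460 in PD (limma, Benjamini-Hochberg adjusted p = 0.012). Lin28a had 3902 and 3659 in PC and 8337 and 8075 in PD (limma, Benjamini-Hochberg adjusted p = 0.014). The other 8 markers are not analysed here.

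Meiosis reduces a diploid germ cell to haploid gametes, and its prophase differs from mitosis in the cohesin that holds sister chromatids, in programmed DNA breaks and in recombination between homologous chromosomes. Retinoic acid induces STRA8, which together with MEIOSIN switches on the meiotic programme in germ cells. In embryonic stem cells many of these genes are known to be held down by a Polycomb complex that contains MGA, MAX and E2F6, and by DNA methylation. Embryonic stem cells do not complete meiosis in ordinary culture.

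RefSeq promoter sequences (GRCm38.p6) were at hand for 5 of the 6 genes, and the 250 bases before the annotated start were searched on both strands for 5 short motifs, chosen with the sequences in view. The Stra8, Meioc and Msh5 stretches below are shown because they hold AGGTCA or GCGGGAA, letters that regulators named above are known to bind. The Msh5 stretch cuts off a match to the STRA8 and MEIOSIN motif, given further below. Capitals mark AGGTCA, the core that retinoic acid receptors and other nuclear receptors recognise, in Stra8. They mark GCGGGAA, a core recognised by E2F proteins, in Meioc and Msh5, and in Meioc also CCAAT or its reverse complement ATTGG. The Stra8 stretches lie at chr6:34920742-34920771 and chr6:34920898-34920927 on the plus strand, Meioc at chr11:102665335-102665584 on the plus strand and Msh5 at chr17:35046669-35046698 on the minus strand, each 5′ to 3′ along the gene.
Stra8, match at -194: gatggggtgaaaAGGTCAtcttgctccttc
Stra8, match at -38: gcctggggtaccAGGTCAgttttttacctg
Msh5, match at -65: tgacggaaaagGCGGGAAagtgctgcgaat
Meioc, all 250 bases: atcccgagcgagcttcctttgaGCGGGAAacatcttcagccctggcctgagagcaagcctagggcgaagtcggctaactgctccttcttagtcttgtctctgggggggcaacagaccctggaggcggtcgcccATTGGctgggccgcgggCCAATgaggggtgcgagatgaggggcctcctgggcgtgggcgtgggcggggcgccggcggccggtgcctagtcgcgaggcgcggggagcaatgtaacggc

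AGGTCA occurred 2 times before the Stra8 start, at -194 and -38 counted from the first base before the start, and in no other of the 5 windows. At least 1 match was held by 14.0% of the 32851 RefSeq promoter windows of this length, and 2 or more by 1.36%. The letters GCGGGAA stood at -228 in Meioc and at -65 in Msh5, against 3.82% of all windows. CCAAT, the site of the factor NF-Y, occurred in 4 of the 5 windows, with 4 matches in Stra8, 3 each in Rec8 and Msh5 and 2 in Meioc, against 33.8% of all windows with at least 1. The E-box CACGTG, a site of MGA and MAX, was in none of the 5 windows and in 6.02% of all. The STRA8 and MEIOSIN motif CNCCTCAG was in 1 of the 5, Msh5 at -82, and in 6.42% of all. CCAAT shares no letters with the other matches in these windows. The window before Stra8 overlaps an annotated exon in GENCODE M21. These matches are letters in a sequence, and binding was not measured.

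Stra8, the gatekeeper of meiosis, had 5847 and 7125 normalized reads in PC replicates 1 and 2, against 592 and 472 in PD replicates 1 and 2. Every PC library was far above every PD library, and the lowest PC value was 9.88 times the highest PD value. The means were 6486 ± 904 in PC and 532 ± 84.5 in PD (SD, n = 2 each), a 12.2-fold ratio and a log2 difference of 3.61 (SE 0.16). Normalized reads are read counts divided by 1 size factor per library, and log2 differences are PC minus PD on the log2(normalized reads + 1) scale. In bulk RNA, more cells with the transcript and more transcript per cell cannot be told apart.

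Rec8, the kleisin subunit of meiotic cohesin, had the most reads of the 6, with 12749 and 13345 normalized reads in PC and 3394 and 3163 in PD. The groups were well apart, and the PC mean of 13047 ± 421 was 3.98 times the PD mean of 3278 ± 163 (SD, n = 2 each). Its log2 difference was 1.99 (SE 0.08). The gain of 9769 normalized reads was the second largest of any listed gene, and that of Stra8, 5954, the fifth. Rec8 transcripts were thus plentiful without CID755673 as well.

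Meioc encodes a partner of the RNA helicase YTHDC2 that germ cells need to stay in meiotic prophase. It had 3589 and 3627 normalized reads in PC, against 1686 and 1547 in PD, a log2 difference of 1.16 (SE 0.09). The means were 3608 ± 27.0 in PC and 1617 ± 98.5 in PD (SD, n = 2 each). This was the smallest difference of the 6, 2.23-fold in the means, and the closest to the 2-fold limit of the table.

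Dmc1 and Msh5 act in meiotic recombination. DMC1 is the meiotic recombinase that carries out strand exchange between homologous chromosomes. Its transcript had 1200.5 and 1167 normalized reads in PC and 472 and 500.4 in PD, with means of 1184 ± 23.7 in PC and 486 ± 19.9 in PD (SD, n = 2 each) and a log2 difference of 1.28 (SE 0.10). MSH5 pairs with MSH4 to stabilise recombination intermediates that become crossovers. Msh5 had the fewest reads of the 6, with 345 and 359 normalized reads in PC and 112 and 92.6 in PD, with means of 352 ± 10.3 in PC and 103 ± 14.1 in PD (SD, n = 2 each) and a log2 difference of 1.78 (SE 0.16). Its ratio of means, 3.43, was above that of Dmc1, 2.43. Neither gene's groups overlapped, as in 608 of the 613 listed genes with higher values.

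Dmrt1 encodes a doublesex-related transcription factor that restrains entry into meiosis in spermatogonia and that is needed for full Stra8 induction in the fetal ovary. It had 3147 and 3275 normalized reads in PC, against 1279 and 1299 in PD. The PC mean of 3211 ± 90.8 was 2.49 times the PD mean of 1289 ± 13.9 (SD, n = 2 each), and the log2 difference was 1.32 (SE 0.08). A gene known to restrain meiotic entry was therefore higher in PC together with the genes of the meiotic programme.

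**Figure D1:**
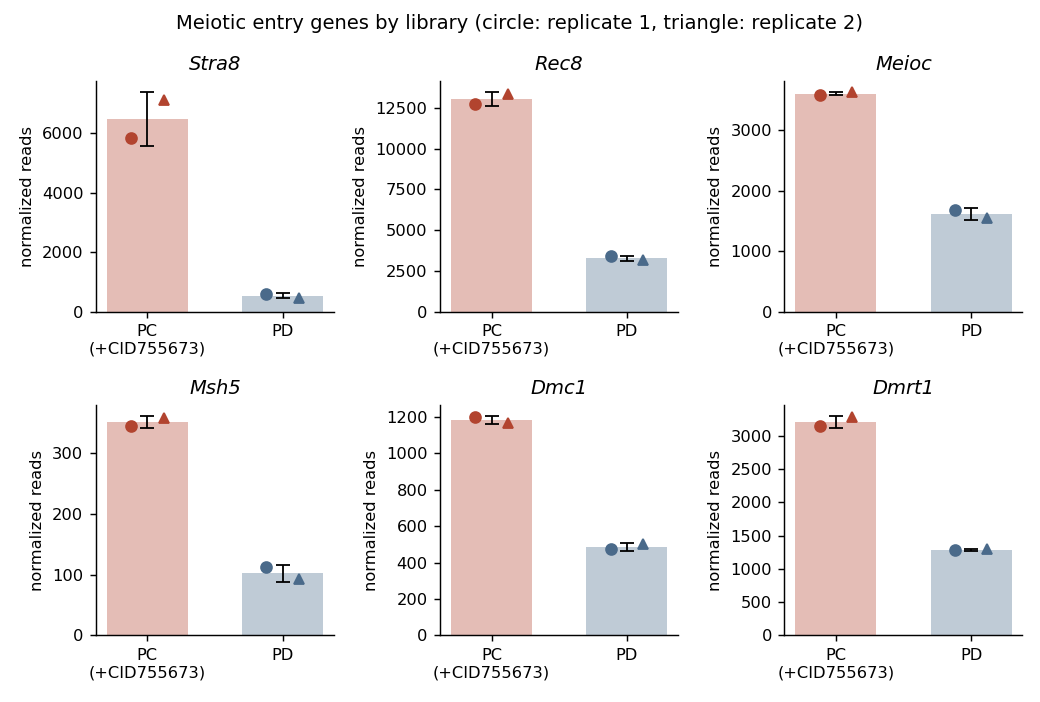
Normalized reads (y axis, linear, from 0) of the 6 meiotic entry genes in the PC libraries (left) and PD libraries (right). Bars are means, error bars SD of 2 libraries, circles replicate 1 and triangles replicate 2. In each gene both PC libraries stand above both PD libraries, as in 608 of the 613 listed genes with higher values. The widest spread is between the PC libraries of Stra8 (5847 and 7125).

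In all 6 genes both PC libraries were above both PD libraries, as in 38.2% of all listed genes, or 608 of the 613 with higher values. With Benjamini-Hochberg adjustment over the 31432 genes the authors tested, limma called all 6 as higher at an adjusted p under 0.05. The same call as higher was made for 11.2% of all listed genes, or 179 of the 613 with higher values, and a call in either direction for 31.1% of all. In the authors' deposited table all 6 had a false discovery rate under 0.05. Genes higher in PC with such a rate made up 26.4% of all listed genes, or 420 of the 613 with higher values. Because the genes were chosen on this contrast, nothing is read from these counts. With any 1 of the 4 libraries left out, these limma calls did not hold, and a group of 1 library has no spread of its own. The log2 difference then ran from 3.45 to 3.77 for Stra8 and from 1.10 to 1.22 for Meioc.

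**Figure D2:**
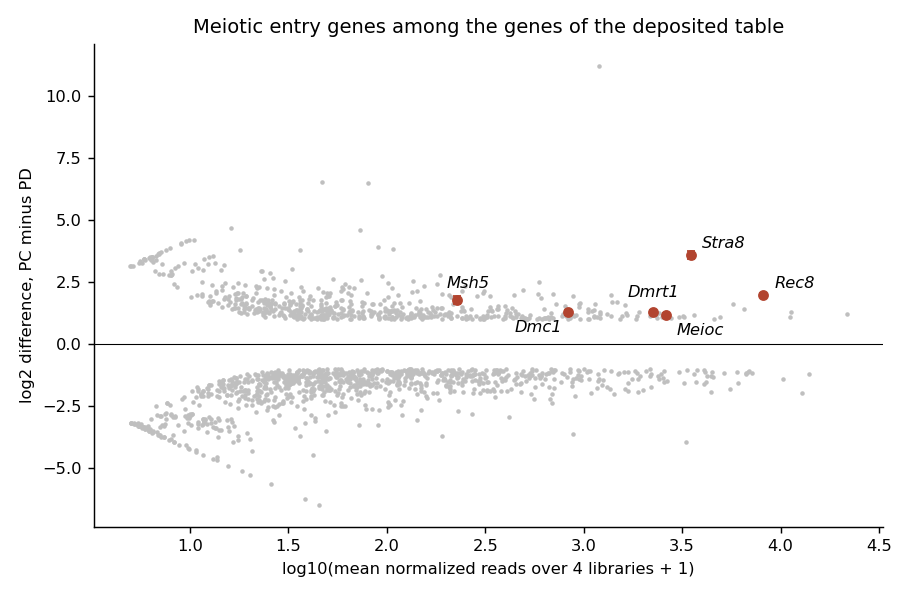
Log2 difference, PC minus PD (y axis), against log10 of the mean normalized reads over the 4 libraries plus 1 (x axis), for the 1593 genes of the deposited table (grey) and the 6 meiotic entry genes (red, bars SE). The empty band around 0 is the authors' fold limit; Stra8 (3.61) and Rec8 (1.99) stand out among genes with many reads, and Meioc (1.16) lies close to the limit.

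Ranked by log2 difference among the 613 higher genes, Stra8 came 21st, Rec8 134th, Msh5 179th, Dmrt1 361st, Dmc1 384th and Meioc 460th. Ranked by mean normalized reads, with no correction for length, over all 1593 listed genes, Rec8 came 7th, Stra8 34th, Meioc 45th, Dmrt1 56th, Dmc1 145th and Msh5 359th. The genes above Stra8 in the first ranking include Gpr61 and Pitx3, with 0 reads in both PD libraries, and Gm29050, with 3.88 and 3.67 normalized reads in PD. Together the 6 genes took 5.39% and 5.60% of the listed reads in the PC libraries, against 1.23% and 1.13% in the PD libraries.

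The values rest on 302 to 15389 reads per gene in the PC libraries and on 101 to 3500 in the PD libraries. The replicates of some genes differed by more than counting error. Stra8 reads numbered 7057 and 5989 in PC, and the ratio of normalized reads, replicate 1 over 2, was 0.821 with a 95% interval of 0.793 to 0.850 (exact binomial). In PD, with 610 and 515 reads, the ratio ran the other way, at 1.25 with an interval of 1.11 to 1.41. For Dmc1, Dmrt1 and Msh5 the interval of the replicate ratio held 1 in both groups. Rec8 excluded 1 in both groups and Meioc in PD alone, with ratios between 0.955 and 1.09. These intervals cover counting error only, and every such replicate difference was far smaller than the difference between the groups.

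Ratios between the genes within a library do not depend on the size factors. Stra8 had 45.9 and 53.4 reads per 100 Rec8 reads in PC, against 17.4 and 14.9 in PD. Against Meioc the same measure was 163 and 196 in PC and 35.1 and 30.5 in PD. The transcripts therefore did not shift by 1 common factor, and Stra8 moved farthest. Stra8 made up 21.8% and 24.7% of the reads of the 6 genes in PC, and 7.85% and 6.67% in PD. Rec8 made up 47.4% and 46.2% in PC and 45.0% and 44.7% in PD. It moved less than Stra8 and more than Meioc, Dmc1 and Dmrt1. It had 355 and 368 reads per 100 Meioc reads in PC, against 201 and 204 in PD. The ratio of Rec8 reads to Meioc reads was 1.78 times as high in PC as in PD, that to Dmc1 reads 1.63 times and that to Dmrt1 reads 1.60 times, with no overlap. The ratio to Msh5 reads was 1.15 times as high, also with no overlap, but Msh5 had only 116 and 101 reads in PD.

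Among the smaller differences, Dmc1 and Dmrt1 moved in near proportion. Dmc1 had 38.2 and 35.6 reads per 100 Dmrt1 reads in PC, against 36.9 and 38.5 in PD, and the groups overlapped. The ratio of Dmc1 to Meioc also overlapped, with 33.4 and 32.2 reads per 100 in PC and 28.0 and 32.3 in PD. Msh5 moved more than Dmc1: it had 28.7 and 30.8 reads per 100 Dmc1 reads in PC, against 23.8 and 18.5 in PD, with no overlap.

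Levels of different genes were compared per kb of merged exons in GENCODE M21. In PC the order was Rec8 at 4445 ± 143, Stra8 at 3597 ± 501, Dmrt1 at 1238 ± 35.0, Meioc at 782 ± 5.84, Dmc1 at 486 ± 9.72 and Msh5 at 63.7 ± 1.87 normalized reads per kb (SD, n = 2). In PD it was Rec8 at 1117 ± 55.7, Dmrt1 at 497 ± 5.36, Meioc at 350.2 ± 21.3, Stra8 at 295 ± 46.9, Dmc1 at 199.7 ± 8.18 and Msh5 at 18.6 ± 2.55 normalized reads per kb. Stra8 thus stood 2 places higher in the PC order than in the PD order, while the other 5 kept their order among themselves. In both groups each gene's 2 libraries were above both libraries of the next. Meioc and Stra8 in PD were the closest pair, at 335 and 328 normalized reads per kb in their nearest libraries, and 2 libraries do not settle their order. The authors' annotation was not given in the sources used here, and with the length of the longest coding transcript instead, the order was the same in each group and Msh5 had 122 normalized reads per kb in PC and 35.5 in PD. In GENCODE M21 none of the 6 genes shares exonic bases with another gene.

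**Figure D3:**
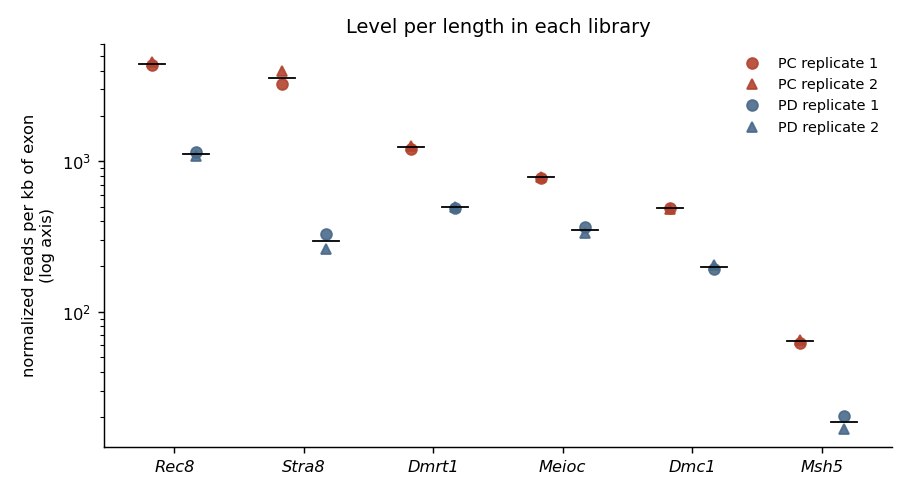
Normalized reads per kb of merged exons (y axis, log scale) of the 6 meiotic entry genes, with PC (red) left of PD (blue) and a black line at the mean of 2 libraries. Stra8 stands above Dmrt1 and Meioc in PC (3597) and below them in PD (295), and the order of the other genes is the same in both groups.

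Other genes of meiosis were counted from 4 lists with 87 symbols in all, of which 4 were listed, all in the list for DNA breaks and recombination. Of these 1 rose and 1 fell by limma, against 179 and 316 of the 1593 listed genes. Cntd1, a cyclin-related gene needed for crossover maturation, had 221 and 211 normalized reads in PC and 99.9 and 99.9 in PD, and rose with a log2 difference of 1.10 (SE 0.15; limma, Benjamini-Hochberg adjusted p = 0.046). Rec114, needed for the meiotic DNA breaks, had 155 and 175 normalized reads in PC and 340.4 and 364 in PD, with a log2 difference of -1.09 (SE 0.14, limma, Benjamini-Hochberg adjusted p = 0.036). A gene that acts upstream of Dmc1 in meiotic recombination thus fell. Exons of Cntd1 overlap those of Becn1 and Coa3 on the other strand, and exons of Rec114 those of Nptn, with the strand setting not given in the sources used here. Cntd1 lost its call with a pseudocount of 0.1, and with any 1 library left out neither gene was called.

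The other listed genes of these lists did not pass in limma, but for 1 of them, Mei1, the authors' deposited table has a false discovery rate under 0.05. Mei1, another gene needed for meiotic DNA breaks, was at 82.8 and 88.0 normalized reads in PC and 43.6 and 31.2 in PD (limma, Benjamini-Hochberg adjusted p = 0.25). Meiob, a single-stranded DNA binding protein of meiotic recombination, was at 59.7 and 19.0 in PC and 4.85 and 16.5 in PD (limma, Benjamini-Hochberg adjusted p = 1.0). Its PC values differ widely, and the lower one lies close to the higher PD value. Of the 4 listed genes 3 had higher values in PC, as had 613 of all 1593. The median log2 difference of the 4 was 1.15, against -1.17 over all listed genes. No listed gene lies within the fold limit, so each median mainly shows the direction of the majority. Of 26 symbols for meiotic entry and its control, 20 for cohesin and the chromosome axis and 8 for the synaptonemal complex, 0 were listed, so Meiosin, Ythdc2, Mga, Max, E2f6, Smc1b, Stag3, Sycp1, Sycp3 and the others are not analysed here. The same holds for all 22 somatic counterparts, such as the mitotic kleisin gene Rad21. A gene that is not listed may have differed by less than the fold limit.

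Germline genes outside meiosis were counted from a list of 34 symbols, of which 5 were listed. All 5 had lower values in PC, as had 980 of the 1593 listed genes. By limma 2 of the 5 fell, as did 316 of all listed genes. Prdm1, which specifies primordial germ cells, had 229 and 215 normalized reads in PC and 687 and 684 in PD, a log2 difference of -1.62 (SE 0.11, limma, Benjamini-Hochberg adjusted p = 0.013). Tex19.1, a germline gene that guards against retrotransposons, had 1577 and 1411 in PC and 3342 and 3501 in PD, a log2 difference of -1.20 (SE 0.10, limma, Benjamini-Hochberg adjusted p = 0.014). Tex101, Rhox6 and Rhox9 did not pass in limma, with log2 differences of -1.35, -1.29 and -1.37. In the authors' deposited table all 5 had a false discovery rate under 0.05. The median of the 5 was -1.35 and that of all listed genes -1.17, with no listed gene within the fold limit. With any 1 library left out none of the 5 was called.

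**Figure D4:**
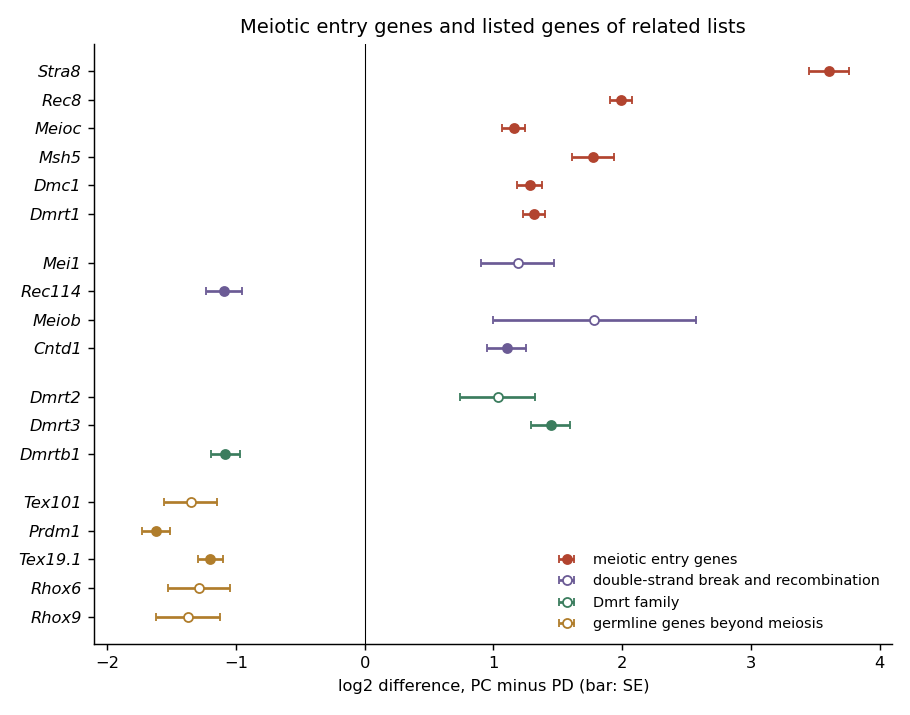
Log2 difference, PC minus PD (x axis, bars SE), of the 6 meiotic entry genes and of the listed genes of 3 related lists, 1 gene per row. In the 3 lists filled points passed the adjusted p of 0.05 and open points did not; the 6 genes lie between 1.16 and 3.61, and the 5 germline genes between -1.62 and -1.20.

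Markers of cells other than embryonic stem cells give the following. Of 9 primordial germ cell markers 1 was listed, Prdm1, which was lower, and of 8 spermatocyte markers 1, Meiob, which did not pass. Of 6 markers of Sertoli and granulosa cells 1 was listed, Sox9, at 53.0 and 51.2 normalized reads in PC and 27.2 and 17.4 in PD, which did not pass. Of 8 extra-embryonic endoderm markers 2 were listed. Gata6 rose, with 380.3 and 468 normalized reads in PC and 193 and 184 in PD (limma, Benjamini-Hochberg adjusted p = 0.040). Sox17 did not pass, at 86.2 and 44.0 in PC and 28.1 and 25.7 in PD (limma, Benjamini-Hochberg adjusted p = 0.74). Of 7 fibroblast markers 1 was listed, Col3a1, which did not pass, at 38.9 and 48.8 in PC and 89.2 and 113.6 in PD. Their part in the differences of the 6 genes was not tested.

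Dmrt1 lies in a row with its relatives Dmrt3 and Dmrt2 in the RefSeq gene order (GRCm38.p6). Dmrt3, a doublesex-related factor known from spinal interneurons, had 265 and 288 normalized reads in PC and 104 and 98.1 in PD, and rose with a log2 difference of 1.44 (SE 0.15; limma, Benjamini-Hochberg adjusted p = 0.020). Dmrt2, which acts in somite patterning, was at 64.6 and 84.5 in PC and 32.0 and 39.4 in PD and did not pass (limma, Benjamini-Hochberg adjusted p = 0.40). Dmrt3 and Dmrt2 had higher values in PC, as had 613 of the 1593 listed genes, and Dmrt1 was chosen for its higher values. Dock8, listed on the other side of Dmrt1, had lower values. Dmrt1 had more reads than Dmrt3 or Dmrt2. Dmrtb1, a family member elsewhere in the genome that acts at the switch from spermatogonia to spermatocytes, fell, with 360.4 and 337 normalized reads in PC and 703 and 775 in PD (log2 difference -1.08, SE 0.11, limma, Benjamini-Hochberg adjusted p = 0.021). Of 10 family symbols besides Dmrt1 these 3 were listed, and none was called with 1 library left out.

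Neighbours were looked up around each of the 6 genes. The authors listed 1593 of the 31432 genes they tested, a number not limited here to protein-coding genes. Of the 36 places made by 3 protein-coding genes on each side of each of the 6, 6 held a listed gene. Those places include Dmrt3, Dmrt2 and Dock8 near Dmrt1. None of the 6 neighbours of Stra8 or of Msh5 was among them. Next to Dmc1, Fam227a had 217 and 192 normalized reads in PC and 82.4 and 66.9 in PD, and near Meioc, Adam11 had 1369 and 1476 in PC and 492 and 427 in PD. Near Rec8 the testis kinase gene Tssk4 was at 33.1 and 42.8 in PC and 13.6 and 10.1 in PD and did not pass. Fam227a and Adam11 rose, by 1.44 (SE 0.20) and 1.63 (SE 0.12) on the log2 scale. Near Dmrt1, Dock8 had lower values, at 23.2 and 29.7 in PC and 76.6 and 48.6 in PD.

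Genes of the retinoic acid pathway, which controls Stra8 in germ cells, were listed for 7 of 29 symbols. The homeobox gene Cdx1 had 378 and 456 normalized reads in PC and 78.5 and 83.4 in PD. It rose by limma, as did the transglutaminase gene Tgm2, and they were among 3 of the list that did. Of all 1593 listed genes 179 rose by limma. With voom on the recovered reads 4 rose and 1 fell, and the authors' deposited table has 4 higher and 1 lower with a false discovery rate under 0.05. Stra6, a receptor for retinol uptake, was at 181 and 238 in PC and 76.6 and 84.3 in PD and did not pass (limma, Benjamini-Hochberg adjusted p = 0.063). The related receptor gene Stra6l, the carrier gene Rbp2 and Aldh1a3, an enzyme of retinoic acid synthesis, had lower values and did not pass. No listed gene of the pathway was called with 1 library left out.

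The listed genes with the most similar profile were found by the Euclidean distance between log2 values centred on each gene's mean over the 4 libraries. Nearest to Stra8 were Gpr61, Gm29050 and Pitx3, at distances of 0.24, 0.28 and 0.32. These genes had few reads: Gpr61 and Pitx3 are listed at 0 reads in both PD libraries, and Gm29050 had 60.5 and 72.6 normalized reads in PC and 3.88 and 3.67 in PD. No gene with as many reads as Stra8 was therefore among its nearest. Rec8 was nearest to Gm28869, Rbm20 and Tex26, and Msh5 to Rnf157, Arsg and Tex26, so that Tex26 was near both. Meioc was nearest to Paqr4, Gadd45b and Abca3, at distances of 0.02 to 0.04. Dmc1 was nearest to Ttc12, then to Dmrt1 and Napepld, and Dmrt1 to Napepld, Ttc12 and 2700046G09Rik, with Dmrt1 and Dmc1 at a distance of 0.09. With 4 libraries in 2 groups, such a likeness rests mainly on the difference between the groups.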

How the data were processed

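RNA was sequenced in 4 libraries (2 PC, 2 PD). Bowtie 0.12.2 and build mm9 appear in the submitters' processing notes, with no role. Counting, annotation, strand use, normalization and test were not given in the sources used here. A single table of selected genes was deposited by the authors, with log2 values per library, group means, a log2 fold change, p-values and false discovery rates, per the file headers. Undoing the log and subtracting 1 gave whole multiples of 1 step per library for 100.0% of values (tolerance 0.001 reads), so reads and size factors (1.21 and 0.841 in PC, 1.03 and 1.09 in PD) were recovered. limma 3.58.1 (R 4.3.3) was fitted to log2(normalized reads + 1) of all 1593 genes, with a trended prior, 2 residual degrees of freedom, a mean of at least 1 normalized read (all genes passed) and Benjamini-Hochberg adjustment over the 31432 genes tested by the authors, a number that follows from the top gene's deposited false discovery rate and p. The spread and its prior come only from genes selected for small p-values, so the spread may be too low and the p-values too small. Unlisted genes were ranked after the listed ones. In the authors' own test the largest listed p ranked 8099th, so many unlisted genes had smaller p-values there. On that account alone the adjusted p-values printed may be too large. These effects run in opposite directions, and their balance was not measured. The fit was tested on simulated data in which most genes did not change, unlike the listed genes. The effect of the selection was not tested by it. The members, lists and tests were chosen with earlier results of these data known. Named were the 6 genes, the listed genes of the 8 lists and the markers (some items are not reported here), and the 3 nearest profiles of each gene; neighbours and genes by annotation were added after their values were seen. Depth beyond the listed genes is unknown. Alternatives were other pseudocounts, filters, priors, scalings, adjustments, a replicate block and each library left out.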

Additional observations from a re-analysis of the deposited data

How the results depend on the processing

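The direction of the 6 genes was fixed by their selection. Over the alternatives that can move it (pseudocount, voom, size factors, a library left out) the log2 difference ran from 3.45 to 3.77 for Stra8 and from 1.08 to 1.22 for Meioc. Without size factors all 6 fell by nearly the same amount: Stra8 from 3.61 to 3.53, Msh5 from 1.78 to 1.70 and Rec8 from 1.99 to 1.92. Meioc (1.08), Dmc1 (1.21) and Dmrt1 (1.24) fell likewise. The fall exceeded the replicate SD, pooled over both groups, in Rec8, Meioc, Dmc1 and Dmrt1. It did not in Stra8 and Msh5, whose replicates lay farther apart. In Rec8, Meioc and Dmc1 the PD libraries still differed from each other by more than the fall. The numbers of calls depended on the settings. Of the listed genes limma called 495, and 1 without a trended prior, 64 without size factors, 2 at an adjusted p under 0.01, 1536 when adjusted over the listed genes alone and 33 to 61 with 1 library left out; 1119 had a deposited false discovery rate under 0.05, an alternative chosen after seeing the data. Of the 6 genes, limma called 0 without the trend or at 0.01 and 1 without size factors (Stra8). No call held with 1 library left out, and voom on the recovered reads called all 6, with 661 listed genes called in all. All 6 had an unadjusted p under 0.05 in limma without the trend and without size factors, as had 1487 and 1434 of the 1593 listed genes. Of the 4 listed genes of the meiosis lists, 2 were called, 1 with a pseudocount of 0.1, and 0 without the trend, without size factors, at 0.01 or with 1 library left out (limma; 2 or 3 at an unadjusted p under 0.05, and 2 called by voom). Calls were also gained: 3 of these 4 with the deposited false discovery rate, the adjustment over listed genes or the replicate block, which all called 5 of the 5 germline genes, against 2. With the replicate block limma called 1176 genes, with 1 residual degree of freedom. Same-numbered libraries did not deviate together (r = -5.8e-05 across 1593 genes, which are not independent replicates). No label says whether same-numbered libraries were paired, and this correlation cannot settle it. In the fits without a library a lone sample was taken to spread as the other group does. The filter of the table, its unknown depth and 2 libraries per group limit every count.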

Other observations

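The process annotation in the deposited table names meiosis for 14 listed genes, 5 of them among the 6 described. Of the other 9, 4 had higher and 5 lower values in PC. Limma with Benjamini-Hochberg adjustment called 6 of the 9 in either direction, against 31.1% of all listed genes. Of those not yet described, Catsperz, a part of the sperm calcium channel, rose, with 378 and 427 normalized reads in PC and 197 and 185 in PD. Dnmt3l and Dnmt3c, which act in DNA methylation of the germline, fell. Dnmt3l had 2522 and 2422 normalized reads in PC and 8362 and 8847 in PD, and Dnmt3c had 38.9 and 39.3 in PC and 119 and 126 in PD. Dpep3, a testis dipeptidase gene, was at 32.3 and 32.1 in PC and 74.7 and 77.0 in PD and did not pass. The annotation thus holds genes in both directions, and the set was chosen after the values were seen.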
